A study of Mus musculus with 6 samples.

Results

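The transcripts of p53 and of 9 genes that it is known to switch on were followed in M2-polarized mouse macrophages in which a tRNA fragment had been blocked. The 10 genes, taken by symbol from the gene count table, were Trp53 (the gene of p53), Cdkn1a, Mdm2, Ccng1, Trp53inp1, Phlda3, Zmat3, Btg2, Aen and Gdf15, out of 41549 genes in that table. All 10 were found and all 10 passed the filter on low counts, as did 11933 genes in all. The level of Trp53 was close to that of the control in every library with the fragment blocked. Cdkn1a and Ccng1, which encode the cell cycle inhibitor p21 and cyclin G1, were 1.43-fold and 1.32-fold higher on average, and neither passed the test across all genes. None of the other 7 targets passed it either, and Gdf15, a secreted stress cytokine, was lower than in every control in only 2 of the 3 libraries with the fragment blocked.

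p53 is a transcription factor that is held at a low level by the ubiquitin ligase MDM2 and is stabilized when DNA is damaged or a cell is otherwise stressed. Its control is mainly at the level of the protein, so that the Trp53 transcript need not follow p53 activity, which is usually read from the transcripts of its targets. Those targets stop the cell cycle, repair DNA, return the signal to p53 itself or drive cell death. In macrophages, p21 is also made without p53, in response to growth factors and cytokines.

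The cells were bone marrow-derived macrophages (BMDMs) of wild-type C57Bl/6 N mice, grown from adult bone marrow with M-CSF for 7 days. As unpolarized M0 cells they were transfected with a locked nucleic acid antisense oligonucleotide against the fragment 5′tRF-Glu(CTC) (αGlu) or with a control antisense oligonucleotide (Ctr), and both groups were then exposed for 48 h to IL-4 plus IL-13, which gives M2 cells. There were 3 libraries in each group, so the groups were meant to differ in the antisense sequence alone, while transfection, M-CSF and polarization were common to both. The study describes 3 independent experiments, but the labels do not tie a library to an animal, so the p-values measure only the spread between these libraries. The fragment itself and the p53 protein were not measured here.

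The stretch of the fragment that the oligonucleotide was designed against, and the oligonucleotide itself, are shown because they set the groups apart. This target stretch is not the whole fragment. Capitals mark the bases that the antisense pairs with, bases 2 to 21 of the 21 listed.
Target stretch in 5′tRF-Glu(CTC): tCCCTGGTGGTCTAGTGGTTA
αGlu antisense: taaccactagaccaccaggg

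p53 binds DNA at pairs of a 10-base motif, the p53 half-site consensus. Promoter sequences of 8 of the 10 genes were searched for exact matches to it, with no mismatch allowed, on both strands. The motif reads alike on both. There were 11 windows, each from 250 bases before to 50 after a transcription start. At least 1 match lay in 6 of the 11 windows (54.5%), against 2745 of 32851 promoter windows in the whole RefSeq set (8.36%). Aen has a pair of overlapping windows that hold the same match. The sequences around the matches are shown in GRCm38.p6 as RefSeq gives them, 5′ to 3′ on the strand of the gene, with the match in capitals and 10 bases on each side.
Cdkn1a, chr17:29090896-29090947, plus strand: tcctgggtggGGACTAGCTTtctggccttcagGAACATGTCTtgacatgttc
Mdm2, chr10:117710925-117710954, minus strand: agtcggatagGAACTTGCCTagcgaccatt
Ccng1, chr11:40755452-40755481, minus strand: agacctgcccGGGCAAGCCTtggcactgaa
Trp53, chr11:69580274-69580303, plus strand: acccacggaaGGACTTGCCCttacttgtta
Aen, chr7:78895927-78895956, plus strand: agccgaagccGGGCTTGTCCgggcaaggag

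In the whole set, 24 of the 32851 promoter windows (0.0731%) held a pair of exact matches with no more than 13 bases between them. Among the windows of the members, only that of Cdkn1a did. The pair began 73 bases before the upstream of 2 listed starts, 12 bases apart, and the window at the other start, 2790 bases downstream, had no match. The single exact matches of Mdm2, Ccng1 and Trp53 began 186, 185 and 75 bases before the start. Stretches that miss the motif by a single base were not counted. Such near matches directly precede the Ccng1 match and directly follow the second Cdkn1a match, so the pairs counted here are a lower limit. The windows of Btg2, Phlda3 and Gdf15 held none. A match is a run of letters and says nothing about binding in these cells, and its absence covers this window alone.

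The libraries held 17912831 to 30386653 reads in genes, and 14539 to 15295 genes had at least 1 read. The library αGlu 1 stood apart from the other two of its group: across genes, its log2 CPM (reads of a gene per 1000000 reads of its library, on scaled library sizes) correlated with theirs at 0.929, while αGlu 2 and αGlu 3 correlated at 0.992 with each other and αGlu 1 with the Ctr libraries at 0.966 to 0.982. Genes are not independent replicates, and these values are a description. Fold changes below are therefore given with and without αGlu 1. The fit without it rests on αGlu 2 and αGlu 3 alone, and αGlu 1 was singled out after its values were seen. Leaving it out lowered the common dispersion, the spread between libraries in the model, from 0.0690 to 0.0203. Adjusted p-values and calls of that fit are a description. All 7 macrophage markers were above 1 CPM, and their summed level was 11634 to 13334 CPM in Ctr and 12319 to 18485 CPM in αGlu. Summed markers of neutrophils (1.07 to 4.30 against 1.43 to 2.42 CPM), lymphocytes (0.0836 to 0.139 against 0.172 to 0.283 CPM), fibroblasts (1.63 to 7.18 against 0.913 to 2.87 CPM), dendritic cells (1.58 to 2.22 against 0.624 to 1.38 CPM) and mast cells or basophils (1.86 to 3.97 against 1.36 to 8.43 CPM) were all low, and their part in the results was not tested. The 8.43 CPM of mast cells or basophils was that of αGlu 1, against 1.73 and 1.36 CPM in αGlu 2 and αGlu 3.

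Per unit of transcript length, the highest of the members in Ctr were Cdkn1a, Ccng1 and Mdm2. In the deposited TPM (transcripts per 1000000 transcripts), which correct for length, Cdkn1a stood at 139 ± 28.7 (SD, n = 3), Ccng1 at 101 ± 11.3 and Mdm2 at 86.5 ± 13.7 TPM, and neighbours in that order overlapped over the Ctr libraries. Trp53, at 44.4 ± 5.38 TPM, lay below all of them in every Ctr library. Btg2 (25.9 ± 4.84 TPM), Trp53inp1 (18.9 ± 2.45 TPM) and Aen (15.6 ± 1.05 TPM) followed, again with overlap between neighbours, and Btg2 lay below Trp53 in each Ctr library. Gdf15 (8.98 ± 3.87 TPM) overlapped with Phlda3 (8.58 ± 0.384 TPM), and Zmat3 had the lowest mean, 6.60 ± 0.324 TPM, below Phlda3 in every Ctr library but overlapping with Gdf15. In αGlu, Cdkn1a was again first, at 212 ± 23.8 TPM, and Gdf15 was last, at 5.16 ± 4.95 TPM, with 10.9, 2.67 and 1.95 TPM in the 3 libraries.

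**Figure D1:**
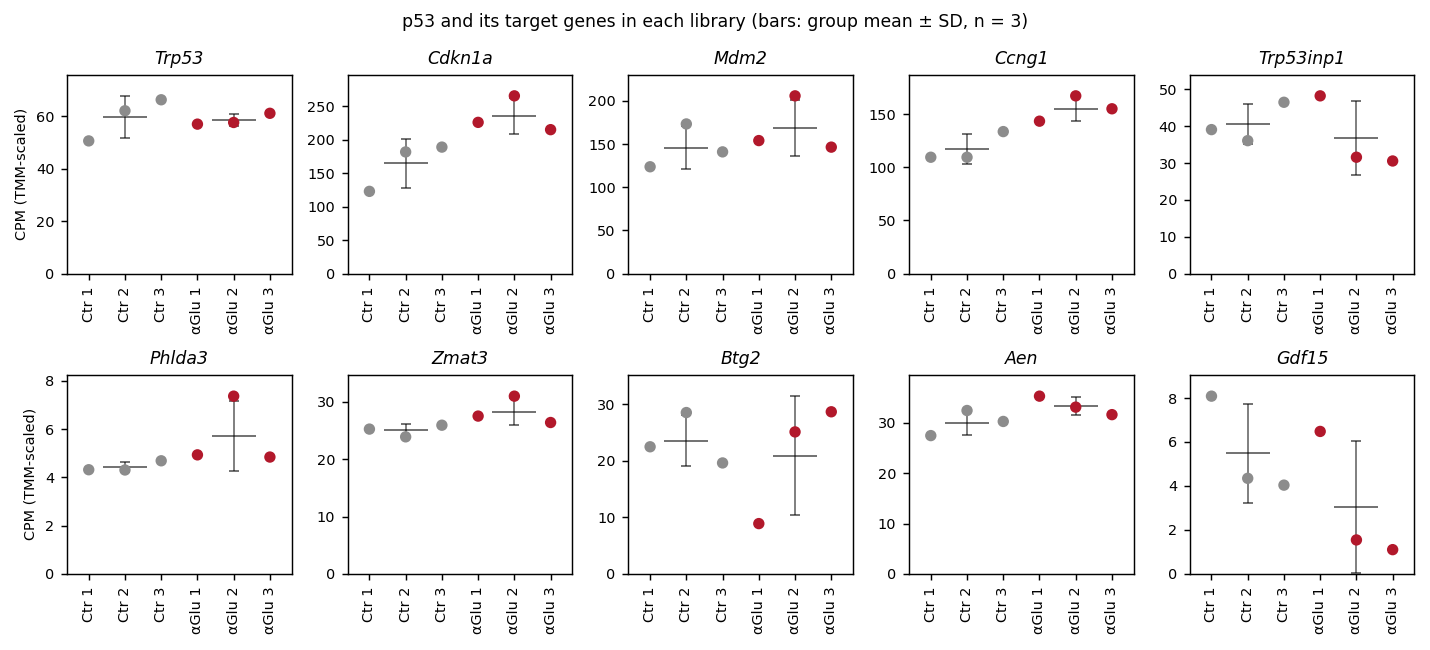
Level of each of the 10 genes in each library, in CPM on TMM-scaled library sizes (vertical axes start at 0 and differ between genes); grey points are Ctr and red points αGlu, and the horizontal bars with whiskers are the group mean ± SD (n = 3). All αGlu points lie above all Ctr points for Cdkn1a, Ccng1, Phlda3 and Zmat3, while αGlu 1 lies away from αGlu 2 and αGlu 3 for Trp53inp1, Btg2 and Gdf15.

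Differences between the groups were tested with edgeR's quasi-likelihood test over all 11933 genes, and p-values were adjusted by Benjamini-Hochberg. Calls needed both an adjusted p under 0.1 and a change of more than 1 on the log2 scale. No member was called, and no gene at all (0% of those tested). The smallest adjusted p of any gene was 0.149 in that test. Before adjustment, 2943 genes (24.7%) had p under 0.05, among them 2 of the 10 members, Cdkn1a and Ccng1, both higher in αGlu, which as a share is no more than that of all genes. DESeq2 called 1119 genes (8.16% of the 13707 it tested) and none of the members, and limma-voom called 0 genes.

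Trp53 itself lies on chromosome 11 (GRCm38, 69580359 to 69591873, plus strand). It had 50.6, 62.1 and 66.3 CPM in the 3 Ctr libraries, against 57.0, 57.6 and 61.1 CPM in αGlu, so every αGlu library fell within the Ctr range. The log2 fold change was -0.03 ± 0.11 (SE), with a 95% interval from -0.30 to 0.25 and an adjusted p of 0.894 in edgeR's quasi-likelihood test. The interval leaves room for a change of that size in either direction. Without αGlu 1 the log2 fold change was -0.01.

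Mdm2, the ubiquitin ligase that targets p53 for degradation and is itself a p53 target, was read from chromosome 10 (117688875 to 117710758, minus strand). The Ctr libraries held 124, 173 and 141 CPM of it, and the αGlu libraries 154, 206 and 147 CPM. The highest value was that of αGlu 2 and the groups overlapped. The log2 fold change was 0.21 ± 0.19 (SE; 95% interval -0.25 to 0.66; adjusted p 0.486, edgeR), and 0.27 without αGlu 1.

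Cdkn1a, on chromosome 17 (29090976 to 29100727, plus strand), encodes p21, which inhibits cyclin-dependent kinases and holds cells in G1. Its levels in Ctr were 123, 182 and 189 CPM, and those in αGlu were 226, 265.5 and 215 CPM. Every αGlu library was above every Ctr library, and Ctr 1 was the lowest of the 6. The difference was 0.52 ± 0.19 on the log2 scale (95% interval 0.05 to 0.98), which did not pass after adjustment (p 0.0350, adjusted p 0.181, edgeR's quasi-likelihood test). Without αGlu 1 it was 0.54 (adjusted p 0.0758, edgeR). With other libraries left out it ran from 0.35 without Ctr 1 (adjusted p 0.351, edgeR) to 0.63 without Ctr 3 (adjusted p 0.290, edgeR).

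Ccng1, on chromosome 11 (40748552 to 40755311, minus strand), encodes cyclin G1, which brings a phosphatase to MDM2. Its levels were 109.5, 109.5 and 134 CPM in Ctr against 143, 167 and 155 CPM in αGlu. Again the groups did not overlap. With a log2 fold change of 0.40 ± 0.12 (95% interval 0.12 to 0.69), it had the smallest p of the members (p 0.0139, adjusted p 0.160, edgeR's quasi-likelihood test). Without αGlu 1 its log2 fold change was 0.45, with an adjusted p of 0.0229 in edgeR.

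Btg2, an antiproliferative gene on chromosome 1 (134075170 to 134079120, minus strand) that is also induced early by many stimuli, differed within αGlu more than between the groups. Ctr libraries held 22.5, 28.5 and 19.6 CPM. In αGlu the values were 8.89 CPM in αGlu 1, the lowest of all 6, and 25.1 and 28.7 CPM in the other two. The log2 fold change was -0.17 ± 0.42 with all libraries (adjusted p 0.813, edgeR) and 0.19 without αGlu 1.

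Phlda3, whose product restrains AKT at the membrane, and Zmat3, an RNA-binding zinc finger gene, were higher in each αGlu library than in each Ctr library by small amounts. Phlda3 (chromosome 1, 135766119 to 135769136, plus strand) had 4.32, 4.30 and 4.69 CPM in Ctr against 4.93, 7.37 and 4.84 CPM in αGlu, from 86 to 234 reads a library, and αGlu 2 alone stood well clear of Ctr. Its log2 fold change was 0.37 ± 0.21 (adjusted p 0.297, edgeR), and 0.46 without αGlu 1. Zmat3 (chromosome 3, 32334792 to 32366014, minus strand) was at 25.3, 23.9 and 25.9 CPM against 27.5, 31.0 and 26.4 CPM, with a log2 fold change of 0.18 ± 0.09 (adjusted p 0.259, edgeR), and 0.19 without αGlu 1.

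Aen, a nuclease gene on chromosome 7 (78895854 to 78911209, plus strand) that takes part in cell death, was at 27.5, 32.5 and 30.3 CPM in Ctr and 35.3, 33.1 and 31.7 CPM in αGlu. Ctr 2 lay within the αGlu range. The log2 fold change was 0.15 ± 0.09 (adjusted p 0.325, edgeR), and 0.10 without αGlu 1.

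Trp53inp1 (chromosome 4, 11156431 to 11174379, plus strand) encodes a stress protein that acts in cell death and autophagy. The Ctr libraries were at 39.1, 36.1 and 46.5 CPM, and the αGlu libraries at 48.2, 31.6 and 30.6 CPM. αGlu 1 was the highest of the 6 and the other two were the lowest. The log2 fold change of -0.14 ± 0.21 with all libraries (adjusted p 0.671, edgeR) became -0.39 ± 0.12 without αGlu 1 (adjusted p 0.0417, edgeR), a fall smaller than the limit of 1 on the log2 scale.

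Gdf15 (chromosome 8, 70629393 to 70632456, minus strand) encodes a secreted stress cytokine that is induced by p53 and, separately, by the integrated stress response. It had 178, 104 and 87 reads in Ctr, or 8.09, 4.35 and 4.04 CPM, and 113, 49 and 30 reads in αGlu, or 6.48, 1.54 and 1.10 CPM. αGlu 1 lay inside the Ctr range and the other two below it. The log2 fold change was -0.88 ± 0.72 (95% interval -2.64 to 0.87, adjusted p 0.447, edgeR) and, without αGlu 1, -2.05 ± 0.39 (adjusted p 0.00821, edgeR).

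**Figure D2:**
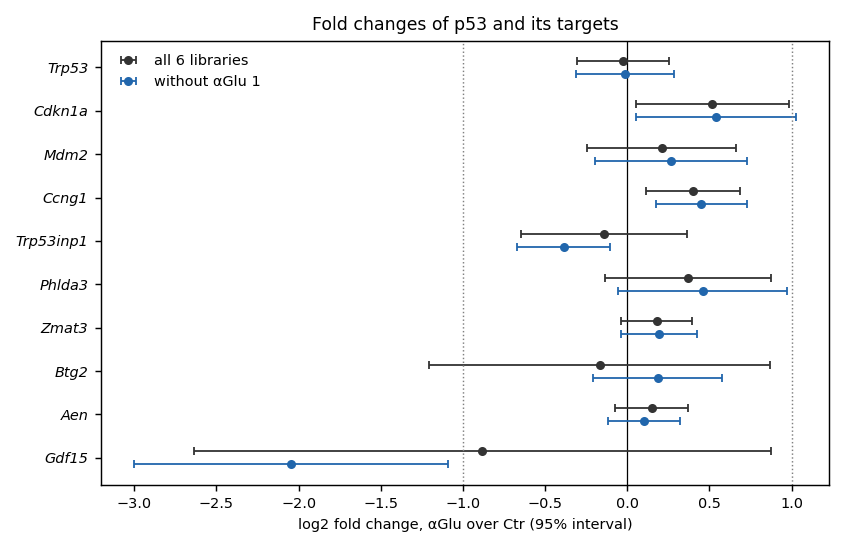
Log2 fold change of αGlu over Ctr for each gene (horizontal axis) with its 95% interval, from edgeR's quasi-likelihood fit of all 6 libraries (dark) and without αGlu 1 (blue); dotted lines mark a change of 1 in either direction. With all libraries the intervals of Cdkn1a and Ccng1 lie above 0, and without αGlu 1 that of Gdf15 runs from -3.00 to -1.09.

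Without αGlu 1, Gdf15 was the only one of the 10 to be called. In that fit 10.5% of the 12340 genes tested were called lower in αGlu and 8.05% called higher, and no member was among the latter. With no fold limit, 4 members passed, Cdkn1a and Ccng1 as higher and Trp53inp1 and Gdf15 as lower, where 49.1% of all genes tested passed. With all 6 libraries and no fold limit, DESeq2 passed 1 member, Ccng1 (adjusted p 0.0425, DESeq2), and 15.9% of all genes.

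The 4 members whose groups did not overlap (Cdkn1a, Ccng1, Phlda3 and Zmat3) were all higher in αGlu, where 14.2% of the genes tested lay higher in this way. No member lay lower without overlap, against 15.9% of all genes. Of the 10 members, 6 had a fold change above 0, beside 6200 of all 11933 genes tested. The median of the 10 members was 0.16 on the log2 scale, beside 0.02 over all genes tested. Averaged over the 9 targets, log2 CPM relative to the Ctr mean was -0.04, 0.02 and 0.01 in Ctr and 0.06, 0.11 and -0.13 in αGlu, so the groups overlapped. The number of the 9 targets above their Ctr mean was 2, 4 and 6 in Ctr 1, Ctr 2 and Ctr 3. It was 8 in αGlu 1 and 7 in each of αGlu 2 and αGlu 3, and the share over all genes was not computed. The exceptions were Btg2 in αGlu 1, and Trp53inp1 and Gdf15 in the other two.

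**Figure D3:**
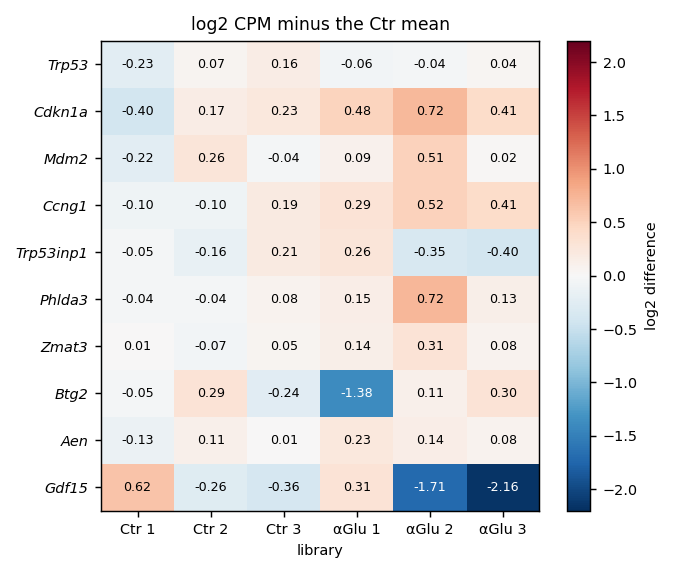
Log2 CPM of each gene (rows) in each library (columns) minus the gene's mean over the 3 Ctr libraries; red is above and blue below that mean. Cdkn1a is at 0.41 to 0.72 in αGlu, Btg2 is at -1.38 in αGlu 1 alone, and Gdf15 is at -1.71 and -2.16 in αGlu 2 and αGlu 3 but at 0.31 in αGlu 1.

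Regulators of p53 had fold changes on both sides of 0. Of 18, 15 were tested, with a median log2 fold change of 0.01; 1 had an unadjusted p under 0.05 as higher and 2 as lower, beside 24.7% of all genes for both directions together, and none was called. Without αGlu 1 the median was -0.07, and edgeR called 0 as higher and 2, Chek1 and Hipk2, as lower, where 8.05% and 10.5% of all genes were called. The kinase gene Chek1, which signals from stalled replication, was at 1.34 to 2.23 CPM in Ctr and 0.330 to 0.441 CPM in αGlu. The αGlu values rest on 6, 14 and 9 reads. Its log2 fold change was -2.26 ± 0.31 (adjusted p 0.149, edgeR), and -2.22 without αGlu 1 (adjusted p 0.00531, edgeR). Rchy1, another ubiquitin ligase gene for p53, was at 26.03 to 28.3 CPM in Ctr and 19.9 to 23.4 CPM in αGlu (-0.38 ± 0.10 on the log2 scale, and -0.46 without αGlu 1). Among the most abundant, the acetyltransferase gene Ep300 had a log2 fold change of -0.03 ± 0.15, and of -0.19 without αGlu 1. Hipk2, a kinase gene of the p53 response, was at 288, 282 and 101 CPM in Ctr and 263, 82.2 and 63.0 CPM in αGlu, with Ctr 3 and αGlu 1 each apart from the rest of its group. Its log2 fold change was -0.72 ± 0.66 with all libraries and -1.63 ± 0.46 without αGlu 1 (adjusted p 0.0315, edgeR). The p53 relatives Trp63 and Trp73 had 0 reads in every library, a result that still permits 0.172 CPM in the shallowest library (3 counts, counting error only).

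Further p53 targets, listed under arrest and repair, also lay on both sides of 0. That list is wider than its name: it also holds genes of transport and metabolism, such as Slc19a2 and Pltp. Of 20, 19 were tested, with a median log2 fold change of -0.05, and 3 had an unadjusted p under 0.05 as higher and 3 as lower, again beside 24.7% of all genes. Without αGlu 1, with 20 tested, the median was 0.05, and edgeR called 2 as higher and 4 as lower, beside 8.05% and 10.5% of all genes. The thiamine transporter gene Slc19a2 was at 5.54 to 6.87 CPM in Ctr and 8.20 to 10.5 CPM in αGlu (0.67 ± 0.15 on the log2 scale, adjusted p 0.156, edgeR; 0.76 without αGlu 1). Ckap2, a spindle gene, was at 1.38 to 2.86 CPM against 0.516 to 0.660 CPM (-1.68 ± 0.37, and -1.61 without αGlu 1, where it was called). The phospholipid transfer gene Pltp, the most abundant of these, overlapped between the groups (0.19 ± 0.27, and 0.42 without αGlu 1). The kinase gene Plk2 had 277, 419 and 340 CPM in Ctr and 311 CPM in αGlu 1, but 43.3 and 36.9 CPM in αGlu 2 and αGlu 3 (-1.40 ± 0.86), which is the split seen for Gdf15. Without αGlu 1 its log2 fold change was -3.11 ± 0.21 (adjusted p 0.000140, edgeR).

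Of 16 death targets, 13 were tested, and the median of their log2 fold changes was 0.25. Of those, 4 had an unadjusted p under 0.05, all as higher (Fas, Apaf1, Bax and Cd80), beside 24.7% of all genes in either direction. The list is wider than death effectors: it holds the costimulatory ligand gene Cd80, and Tigar, whose product protects cells. In this list 5 genes were higher without overlap and 1, Tigar, lower, where 14.2% and 15.9% of all genes were. None was called by edgeR. Without αGlu 1 the median was 0.29, with 2 called higher (Fas and Cd80) and 1 lower (Pmaip1), beside 8.05% and 10.5% of all genes. The death receptor gene Fas had 4.09, 3.05 and 3.39 CPM in Ctr, against 4.76, 32.0 and 35.2 CPM in αGlu (2.78 ± 0.72 on the log2 scale, adjusted p 0.156, edgeR). Without αGlu 1 the fold change of Fas was 3.26 ± 0.13 (adjusted p 2.86e-05, edgeR). Apaf1, which forms the apoptosome, was at 49.9 to 57.4 CPM in Ctr and 65.0 to 96.9 CPM in αGlu (0.66 ± 0.17, and 0.82 without αGlu 1). Bax, the pore-forming effector, was at 90.3, 98.5 and 95.6 CPM in Ctr and 105, 125 and 114 CPM in αGlu (0.28 ± 0.09, adjusted p 0.168, edgeR; 0.33 without αGlu 1). Abhd4 overlapped (-0.11 ± 0.09, and -0.11 without αGlu 1).

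Genes that p53 lowers through p21 and the DREAM repressor complex, mostly cell division genes, had lower values in αGlu. Of 15 tested of 16, 14 had a fold change below 0, with a median of -1.48 on the log2 scale. An unadjusted p under 0.05 was found for 11, beside 24.7% of all genes, and 11 were lower without overlap, beside 15.9%. DESeq2 called 10 of those 15 as lower, and also Cdc25c, which fell under the filter on low counts. Beside this, DESeq2 called 8.16% of the 13707 genes it tested, in either direction. None was called by edgeR with all 6 libraries. Without αGlu 1, 11 of 16 tested were called lower (median -1.75), beside 10.5% of all genes. The study itself displays cell division genes from these libraries, so the list is not independent evidence of its direction. The ribonucleotide reductase gene Rrm2 had 12.6, 4.35 and 8.86 CPM in Ctr and 0.746, 1.04 and 1.06 CPM in αGlu (-3.16 ± 0.44, adjusted p 0.149, edgeR; -3.03 without αGlu 1). The replicative helicase gene Mcm5 was at 18.2 to 24.5 CPM against 5.57 to 10.4 CPM (-1.45 ± 0.25, and -1.72 without αGlu 1), and the topoisomerase gene Top2a at 13.8 to 36.9 CPM against 5.54 to 6.88 CPM (-1.85 ± 0.39, and -1.91 without αGlu 1). E2f1, the cell cycle transcription factor, overlapped (0.07 ± 0.11, and 0.17 without αGlu 1). In these bulk samples, fewer dividing cells and less of these transcripts per cell cannot be told apart.

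Set beside Cdkn1a library by library, the mean of this list relative to the Ctr mean was 0.65, -0.57 and -0.08 in Ctr 1, 2 and 3 and -1.56, -1.48 and -1.53 in αGlu 1, 2 and 3. Ctr 1 had both the highest list mean and the lowest Cdkn1a, while Ctr 2 had the lowest list mean of the Ctr libraries and Ctr 3 their highest Cdkn1a. On this mean αGlu 1, which stood apart for Gdf15 and Btg2, lay with αGlu 2 and αGlu 3. Single genes of the list did split, in either direction. Ccnb1 was at 1.20 CPM in αGlu 1 against 5.01 and 5.35 CPM in αGlu 2 and αGlu 3. Mcm5 was at 10.4 CPM in αGlu 1 against 5.57 and 7.30 CPM.

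**Figure D4:**
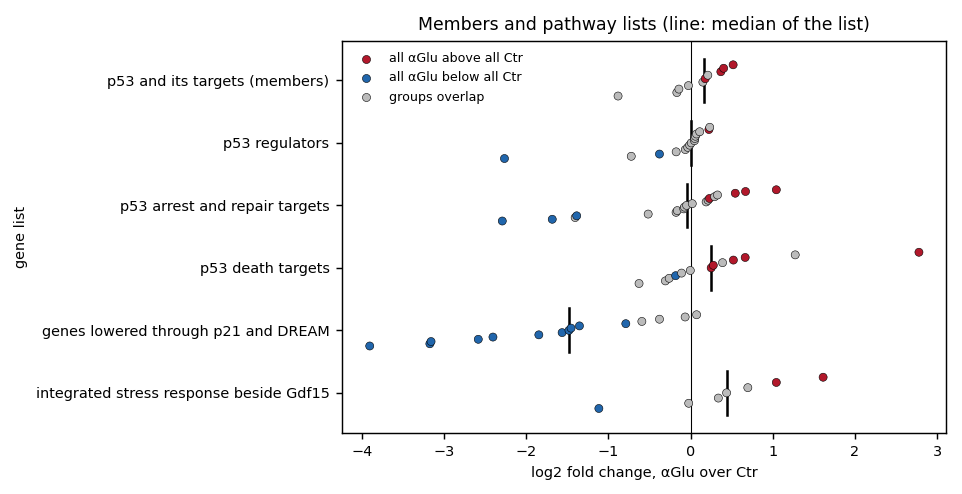
Log2 fold change of αGlu over Ctr (horizontal axis) for the 10 members and for the tested genes of each pathway list; red points are genes with all αGlu libraries above all Ctr libraries, blue points the reverse and grey points overlapping groups, and the vertical line is the median of the list. The members lie close to 0 (median 0.16) and the p21 and DREAM list lies to the left (median -1.48).

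The integrated stress response, the other route to Gdf15, was read from 7 tested of 8 genes with a median log2 fold change of 0.44, where 2 were higher and 1 lower at an unadjusted p under 0.05, beside 24.7% of all genes. Without αGlu 1, with all 8 tested, the median was 0.74, and edgeR called 3 as higher and 1 as lower, beside 8.05% and 10.5% of all genes. The pseudokinase gene Trib3 was at 2.88 to 3.45 CPM in Ctr and 5.51 to 14.1 CPM in αGlu (1.61 ± 0.35 on the log2 scale, adjusted p 0.153, edgeR; 1.89 without αGlu 1). Sesn2, which is a p53 target as well and stands on both lists, was at 11.1 to 14.1 CPM against 17.2 to 32.8 CPM (1.04 ± 0.25, and 1.27 without αGlu 1). The transcription factor genes Atf4 and Atf3 had log2 fold changes of 0.34 ± 0.16 and -1.12 ± 0.40 (adjusted p 0.235 and 0.178, edgeR). Without αGlu 1 these were 0.47 and -1.69, and Atf3 was called. Gdf15 thus had a fold change below 0, like Atf3, where Trib3 and Sesn2 were above 0.

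Over the 6 libraries, the genes most like Trp53 and Cdkn1a were sought among 9419 tested genes with a mean of at least 5 CPM, by the root mean square difference of log2 profiles centred on their means. Those nearest to Trp53 were the ribosome assembly gene Brix1 (0.037), Ap5s1 (0.043) and Crebzf (0.045), against a range of 0.39 for Trp53 itself. Those nearest to Cdkn1a, whose range was 1.11, were Il13ra1, a receptor chain for IL-13 (0.056), Tmem219 (0.067) and the class I histocompatibility gene H2-K1 (0.075). Il13ra1 was at 10.6, 16.2 and 16.2 CPM in Ctr and 19.7, 22.2 and 17.0 CPM in αGlu. H2-K1 has close relatives that can share its reads, so its level is uncertain.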

How the data were processed

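Stranded mRNA libraries of 6 BMDM cultures (3 Ctr, 3 αGlu) had been sequenced on an Illumina instrument, and the authors had annotated the reads in the QIAGEN RNA-seq Analysis Portal on GRCm38; aligner settings, annotation release and the strand setting are not given in the sources used here. The deposited table holds whole-number read counts per gene over exons and, per the file headers, TPM for each library; its CPM and RPKM columns were not used. A row that names no gene was left out (1 row). Gene coordinates are those of GENCODE for GRCm38.

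Counts were fitted with edgeR 4.0.16 (R 4.3.3; limma 3.58.1) with TMM scaling (factors 0.951 to 1.07), after removal of genes under the default minimum of 10 counts, with group as the only term and Benjamini-Hochberg adjustment over 11933 genes. CPM use TMM-scaled library sizes, and log2 CPM a prior count of 2. DESeq2 1.42.0, other scalings, filters and left-out libraries were alternatives. Fits were tested on simulated data. No library was a repeat of another of its group: the chi-square between any pair, averaged over genes, was at least 19.8, where sampling noise alone gives about 1. An exact permutation test of 3 against 3 libraries cannot go below 0.1 and was not used. With 17912831 to 30386653 reads a library, counting error was largest for Gdf15 and Phlda3, the members with the fewest reads. The members and the pathway lists were chosen with earlier results of these data known. The genes named from each list were the 2 tested genes with the smallest p and the 2 with the highest mean CPM.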

Additional observations from a re-analysis of the deposited data

How the results depend on the processing

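The count of genes called was 0 with all alternatives of scaling, filter and threshold, and with limma-voom. It was 1119 with DESeq2 and 17 with the replicate number as a block. Leaving out 1 library at a time gave 0 to 2290 genes, the highest being without αGlu 1, and 0 to 1 members, Gdf15. With no fold limit, in alternatives chosen after seeing the data, DESeq2 passed 2179 genes and 1 member, and edgeR without αGlu 1 passed 6055 genes and 4 members. Members without overlap between groups, in either direction, numbered 4 to 6 with a library left out. Smaller groups separate more easily, and the share over all genes was not computed for these fits.

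In 13 alternatives for each member's log2 fold change, 8 members kept their direction in all. That of Trp53 was 0.062 with library size alone, which raised the median of all genes to 0.10, and ran from -0.12 to 0.053 with 1 library left out, above 0 without Ctr 3. That of Btg2 ran from -0.46 to 0.19, above 0 without αGlu 1. With 1 library left out, that of Cdkn1a ran from 0.35 to 0.63, lowest without Ctr 1. Those of Mdm2 and Phlda3 ran from 0.045 to 0.35 and from 0.14 to 0.48, both lowest without αGlu 2. The cause of these shifts was not tested.

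Whether equal replicate numbers mark paired cultures is not known: deviations from the group means correlated at 0.08, 0.06 and 0.15 between libraries of the same number, and every library correlated best with its own number in the other group. The replicate block called 17 genes and 0 members. Depth limits Gdf15, at 30 to 178 reads, and Phlda3, at 86 to 234 reads, more than the other members. It also limits named list genes with low counts in αGlu: Chek1 (6 to 14 reads), Ckap2 (9 to 19) and Rrm2 (13 to 33).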

Other observations

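2 stress genes of the lists fell under the filter on low counts, which asks for reads in 3 libraries, and were picked out after their values were seen. Ddit4, an inhibitor of mTORC1 that is a target of p53 and of other stress routes, had 0.409, 0.167 and 0.278 CPM in Ctr, 0.115 CPM in αGlu 1, and 3.998 and 2.64 CPM in αGlu 2 and αGlu 3. Chac1, a glutathione-degrading enzyme gene of the integrated stress response, had 0.182 to 0.232 CPM in Ctr against 0.229, 1.01 and 1.03 CPM in αGlu. In both, αGlu 1 lay with or below Ctr and the other two above it, and neither was tested in the fit of all 6 libraries. Without αGlu 1 both were called higher by edgeR, with log2 fold changes of 3.53 for Ddit4 and 2.26 for Chac1.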
